A study of Mus musculus with 60 samples.

Results

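Transcripts of brain blood vessels and of red blood cells were measured by RNA-Seq in 60 libraries of mouse brain tissue. The 9 genes described were chosen by name, of 47597 gene entries in each table. The 4 vessel genes are Cldn5, Flt1, Pecam1 and Slco1a4, and the 5 red blood cell genes are Hba-a1, Hba-a2, Hbb-bs, Hbb-bt and Alas2. The mice were littermates aged 3 months of the c57BL-6N strain (per the labels) from 2 lines with changes in the huntingtin gene Htt. In the Δ12 line, part of exon 12 was deleted in embryonic stem cells by CRISPR/Cas9 with homology-directed repair, and the groups were +/+, Δ12/+ and Δ12/Δ12. The KO line came from a founder in which the repair had failed and an imprecise deletion took away the splice donor of that exon, and the groups were +/+ and KO/+. Each of these 5 genotype groups was labelled as cortex and as striatum, which gave 10 groups of 6 libraries (3 labelled male and 3 labelled female). No group received a treatment, and whether the animals were perfused before dissection is not given in the sources used here.

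Endothelial cells line the vessels, and in the brain they are sealed by tight junctions and carry selective transporters, which together form the blood-brain barrier. Cldn5 encodes claudin-5, the main claudin of these junctions. Flt1 encodes VEGF receptor 1, Pecam1 encodes the adhesion protein CD31 between endothelial cells, and Slco1a4 encodes an organic anion transporter of brain endothelium. Haemoglobin is a tetramer of alpha and beta chains. Hba-a1 and Hba-a2 encode the adult alpha chain, Hbb-bs and Hbb-bt the adult beta chain of mice with the s haplotype, and Alas2 the erythroid enzyme that starts haem synthesis. Circulating red cells of mammals have no nucleus, and the globin mRNA found in whole tissue can come from reticulocytes in the vessels. Some neurons are also known to express globin genes.

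The 4 globin genes lie in 2 pairs of copies (coordinates on GRCm38, as in the tables). Hba-a1 (ENSMUSG00000069919, chr11:32283511-32284465, plus strand) and Hba-a2 (ENSMUSG00000069917, chr11:32296489-32297298, plus strand) have coding sequences of 429 bases that differ at 1 position, C381T, counted from the A of the start codon, with the base of Hba-a1 first. Hbb-bs (ENSMUSG00000052305, chr7:103826534-103828096, minus strand) and Hbb-bt (ENSMUSG00000073940, chr7:103812524-103813996, minus strand) have coding sequences of 444 bases that also differ at 1 position, C417T, with the base of Hbb-bs first. The stretch around each difference (GENCODE M21 transcripts; coding bases 361 to 400 of the alpha genes and 397 to 436 of the beta genes) is shown because it is what separates reads of the copies within the coding exons. The differing base is in capitals.
Hba-a1: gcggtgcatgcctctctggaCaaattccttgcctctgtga
Hba-a2: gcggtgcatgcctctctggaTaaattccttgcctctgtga
Hbb-bs: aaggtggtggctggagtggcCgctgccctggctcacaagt
Hbb-bt: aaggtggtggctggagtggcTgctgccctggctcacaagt

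Of all 75-base stretches of the Hba-a1 transcript, 62.2% also occur in Hba-a2, and of those of the Hbb-bs transcript 64.3% also occur in Hbb-bt. In the other direction, 81.0% of those of Hba-a2 occur in Hba-a1 and 56.6% of those of Hbb-bt in Hbb-bs. No 75-base stretch is shared between either alpha and either beta transcript. The split of reads between Hba-a1 and Hba-a2, and between Hbb-bs and Hbb-bt, is therefore uncertain, and how shared reads were assigned is not given in the sources used here.

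The promoters of the 4 globin genes hold the same short elements. The 120 bases before the RefSeq start site (GRCm38.p6, gene strand) are shown because the joint variation of these genes over libraries is described further on. The part of the elements in that variation was not tested. Capitals mark, on either strand, the letters CACCC of the box of that name, CCAAT of the box of that name, GATAA of the GATA site and TATAA of the TATA box. Adjoining matches run together. GENCODE M21 places the gene starts of Hba-a1 and Hbb-bs further upstream than RefSeq, so these windows lie within its gene models. The windows of Hba-a2, Hbb-bt and Alas2 run past its gene starts in part.
Hba-a1 (chr11:32283552-32283671): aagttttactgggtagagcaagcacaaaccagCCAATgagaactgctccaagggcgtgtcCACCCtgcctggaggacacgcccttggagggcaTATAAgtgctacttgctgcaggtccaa
Hba-a2 (chr11:32296372-32296491): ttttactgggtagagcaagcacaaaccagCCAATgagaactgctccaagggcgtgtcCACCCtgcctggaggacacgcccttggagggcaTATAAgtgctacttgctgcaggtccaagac
Hbb-bs (chr7:103827929-103828048): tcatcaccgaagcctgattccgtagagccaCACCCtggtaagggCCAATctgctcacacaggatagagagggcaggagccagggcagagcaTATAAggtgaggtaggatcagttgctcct
Hbb-bt (chr7:103813924-103814043): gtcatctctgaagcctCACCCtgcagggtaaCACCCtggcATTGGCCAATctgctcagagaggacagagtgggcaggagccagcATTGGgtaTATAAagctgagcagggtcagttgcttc
Alas2 (chrX:150547297-150547416): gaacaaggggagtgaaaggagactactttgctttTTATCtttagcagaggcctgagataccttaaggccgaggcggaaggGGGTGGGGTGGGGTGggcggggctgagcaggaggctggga

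All 4 globin windows hold the letters of the first, the second and the last of these elements together, which 0.69% of 32851 RefSeq promoter windows of the same length do. The genes are pairs of copies, and the alpha windows hold nearly the same sequence, so these are not 4 separate matches. Of the vessel genes, Flt1 holds CACCC and TATAA, Slco1a4 holds CACCC and CCAAT, and Cldn5 holds CCAAT. Taken singly, CACCC occurs in 31.7% of these windows. For CCAAT the share is 21.3% and for TATAA it is 11.8%. The Alas2 window holds CACCC as well as the letters of the GATA site, the latter present in 10.5% of windows. These matches are descriptions of sequence, not binding sites. Of the 9 genes, 8 have an entry in the promoter table, and Pecam1 has none.

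The tables hold FPKM (fragments scaled to transcript length and to the size of the library), which were rescaled here between libraries with median-of-ratios size factors. Levels below are such rescaled FPKM unless stated otherwise. Depth, as estimated from the deposited interval bounds, ranged from 12700000 to 27500000 fragments. The female transcript Xist and the Y-linked Ddx3y went against the labelled sex in 30 libraries. The labelled tissue also went against the regional markers in 30. Htt was at 12.7 to 19.7 in the libraries labelled striatum KO/+ and at 16.8 to 20.7 in those labelled striatum +/+ of that line, so the targeted gene overlapped between them. By the classes defined below, Htt did not overlap, at 4.81 to 11.2 in the cortex-like and 12.7 to 20.7 in the striatum-like libraries, so that it was lower in +/+ of the Δ12 line (4.81 to 11.2) than in +/+ of the KO line (16.6 to 20.7). A value for the whole gene does not resolve the deleted stretch. Libraries were therefore described in 2 ways, by their labels and by expression. Libraries with Slc17a7, the vesicular glutamate transporter of cortical excitatory neurons, above 100 FPKM as deposited were called cortex-like, and the rest striatum-like. The nearest values on either side were 121 and 64.8 FPKM. This gave 30 libraries of each class, and a split on the striatal dopamine receptor gene Drd2 gave the same classes. Classes are not groups of the labels: the cortex-like libraries were those labelled +/+, Δ12/+ and male Δ12/Δ12 of the Δ12 line, in both labelled tissues. Every KO-line library was striatum-like, as was each female-labelled Δ12/Δ12 library. The estimated depth was 12700000 to 19400000 fragments in the cortex-like and 16400000 to 27500000 in the striatum-like libraries. The tables of the cortex-like libraries also marked 6 to 9 entries as too deep to be quantified, and the others marked 0. Class, line, depth and this mark in the tables cannot be told apart. Among the 12 libraries labelled Δ12/Δ12, 6 of each class, the labelled line is the same, but class still coincides with the mark and with the labelled sex. The classes also coincide with the numbering of the deposited tables, the 30 lowest-numbered being the cortex-like ones. Whether each table belongs to its label was not tested, and every comparison by label below rests on that.

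The comparison of the classes asked whether vessel and blood transcripts differ together between cortex-like and striatum-like tissue. Beta-globin transcripts showed the largest differences of the 9 genes, at 13.0-fold (Hbb-bs) and 14.4-fold (Hbb-bt) between the medians of the classes, whereas the alpha-globin transcripts differed about as much as Cldn5, by 2.09-fold to 2.34-fold. That likeness depends on the scaling: after quantile normalization the log2 difference was 0.53 for Hba-a1, 0.23 for Hba-a2 (adjusted p = 0.0151 by limma) and 0.90 for Cldn5. All 5 were higher in the cortex-like libraries. Flt1 and Pecam1 were higher in the striatum-like libraries, by 6.07-fold and 2.50-fold between medians, and Slco1a4 and Alas2 were close to equal. By limma with Benjamini-Hochberg adjustment over all genes, 8 of the 9 genes passed an adjusted p of 0.05, against 87.7% of the 16076 genes tested. The count is thus near the background, and it is the size and direction of the differences that set the genes apart from each other. Both libraries of a labelled mouse fell in the same class, 15 labelled mice in each. They were counted separately in all tests between the classes, here and below. The SE and p-values of these tests thus make no allowance for shared mice and can be too small.

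**Figure D1:**
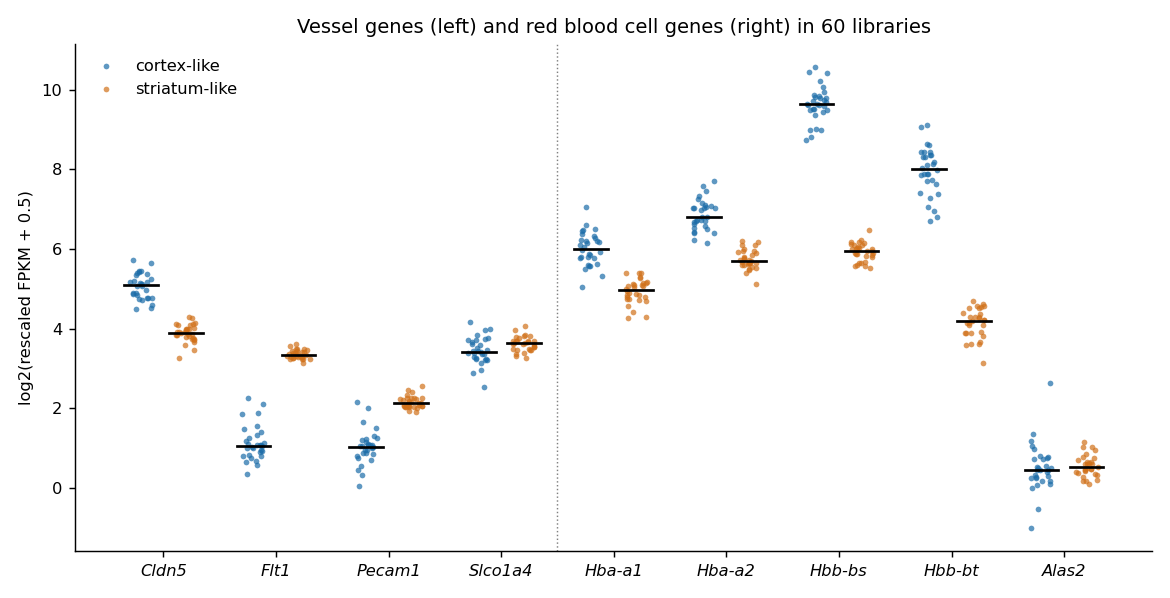
Each point is the log2(rescaled FPKM + 0.5) of a gene in a library, in blue for the 30 cortex-like and in orange for the 30 striatum-like libraries, and bars are medians. The ranges of the classes do not overlap for Cldn5, Flt1, Hbb-bs and Hbb-bt, and the direction for Flt1 is the opposite of that for the other 3.

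Among the vessel genes, Cldn5 (ENSMUSG00000041378, chr16:18776847-18778260, plus strand) ranged from 21.9 to 52.7 (median 33.7) in the cortex-like and from 9.18 to 19.1 (median 14.4) in the striatum-like libraries. The lowest cortex-like library was above the highest striatum-like library. Its log2 difference (cortex-like minus striatum-like) was 1.18 (SE 0.07, adjusted p = 1.61e-23 by limma).

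Flt1 (ENSMUSG00000029648, chr5:147561604-147726011, minus strand) ranged from 0.766 to 4.33 (median 1.59) in the cortex-like and from 8.26 to 11.7 (median 9.65) in the striatum-like libraries. These ranges did not overlap either, with the cortex-like libraries below. The log2 difference was -2.22 (SE 0.08, adjusted p = 2.71e-34).

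Pecam1 (ENSMUSG00000020717, chr11:106654217-106750628, minus strand) ranged from 0.532 to 3.94 (median 1.55) and from 3.29 to 5.42 (median 3.88) in the same order. In 28 of 30 cortex-like libraries it was below the lowest striatum-like library, and the log2 difference was -1.12 (SE 0.08, adjusted p = 1.64e-19). The remaining 2 were cortex Δ12-line +/+ male1 and female1, which had 16414 and 14925 entries above 0 against 18682 to 22079 in the other 58 libraries.

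Slco1a4 (ENSMUSG00000030237, chr6:141805440-141856199, minus strand) ranged from 5.32 to 17.3 (median 10.2) and from 9.16 to 16.4 (median 11.9). The classes overlapped over most of their range. The log2 difference of -0.17 (SE 0.07, adjusted p = 0.0216) became 0.19 on FPKM as deposited, where the median difference of all genes moved from -0.06 to 0.26, so its direction depends on the scaling.

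Among the blood genes, Hbb-bs ranged from 427 to 1520 (median 800.1) in the cortex-like and from 45.2 to 89.0 (median 61.7) in the striatum-like libraries. Hbb-bt ranged from 104 to 558 (median 257) and from 8.26 to 25.6 (median 17.9). Neither gene overlapped between the classes. The log2 differences were 3.72 (SE 0.09, adjusted p = 8.75e-44) for Hbb-bs and 3.82 (SE 0.13, adjusted p = 1.55e-36) for Hbb-bt.

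Hba-a1 ranged from 32.8 to 133 (median 64.0) in the cortex-like and from 18.9 to 42.1 (median 30.7) in the striatum-like libraries. Hba-a2 ranged from 70.9 to 209 (median 111) and from 34.6 to 73.0 (median 51.8). Here the classes met at their edges: 28 cortex-like libraries for Hba-a1 and 29 for Hba-a2 were above the highest striatum-like library. The log2 differences were 1.07 (SE 0.09, adjusted p = 3.08e-16) and 1.11 (SE 0.08, adjusted p = 1.82e-19).

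Alas2 (ENSMUSG00000025270, chrX:150547375-150570638, plus strand) was near the limit of detection. It was listed at 0 in 1 cortex-like library (cortex Δ12-line +/+ female1) and reached 5.74 in another (cortex Δ12-line +/+ male1), with a median of 0.868. In the striatum-like libraries it ranged from 0.580 to 1.72 (median 0.934). The log2 difference of -0.05 (SE 0.12, adjusted p = 0.700) did not pass the test, and it was 0.18 on FPKM as deposited and 0.17 after quantile normalization, neither of which passed.

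Ranges that did not overlap between the classes were found for 4 of the 9 genes, against 36.2% of all genes tested. Leaving out any single library kept the count of called genes at 8. Within the 12 libraries labelled Δ12/Δ12, 7 of the 9 genes passed, against 77.5% of 15867 genes. There the log2 difference was 3.45 for Hbb-bs, 3.44 for Hbb-bt, -2.25 for Flt1 and -1.27 for Pecam1, close to the values over 60 libraries. It was smaller for Cldn5 (0.62), Hba-a1 (0.61) and Hba-a2 (0.75), which still passed, and Slco1a4 did not pass (-0.29, adjusted p = 0.0511). In bulk tissue, fewer cells of a type and less RNA per cell cannot be told apart.

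The ranges of the ratio of beta to alpha transcripts did not overlap between the classes. The sum of Hbb-bs and Hbb-bt over the sum of Hba-a1 and Hba-a2 was 3.18 to 9.61 (median 5.96) in the cortex-like and 0.680 to 1.48 (median 0.887) in the striatum-like libraries. Since FPKM are per length, the beta genes thus gave several times as much signal as the alpha genes in the first class and about the same amount in the second. The shares within each pair of copies moved far less. Hba-a2 was 1.57 to 2.19 times Hba-a1 (median 1.80) in the cortex-like and 1.47 to 2.31 times (median 1.74) in the striatum-like libraries. Hbb-bs was 2.39 to 4.94 times Hbb-bt (median 3.09) and 2.63 to 5.67 times (median 3.33). Both ratios overlapped between the classes.

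**Figure D2:**
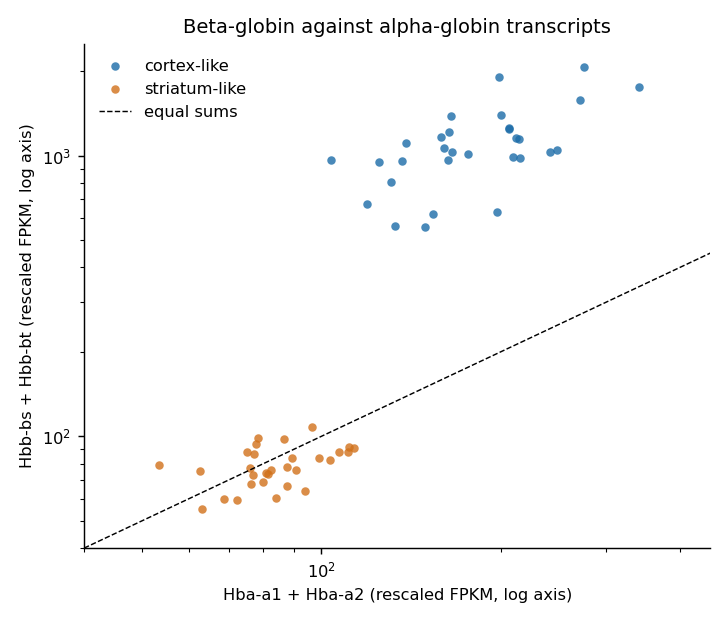
Each point is a library, with the summed rescaled FPKM of the alpha-globin genes on the x axis and of the beta-globin genes on the y axis (log axes), in blue for cortex-like and in orange for striatum-like libraries. The dashed line marks equal sums, around which the striatum-like libraries lie, while each cortex-like library lies above it by 3.18-fold or more.

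The vessel genes likewise moved apart from each other. Cldn5 was 6.75 to 79.5 times Pecam1 (median 21.7) in the cortex-like and 2.43 to 4.82 times (median 3.68) in the striatum-like libraries. It was 6.87 to 42.2 times Flt1 (median 21.2) and 1.02 to 1.99 times (median 1.46). These endothelial ratios did not overlap between the classes. In contrast, Hba-a2 relative to Cldn5 was alike, with medians of 3.67 and 3.60 and overlapping ranges (1.95 to 7.85 and 2.36 to 7.45), whereas Hbb-bs relative to Cldn5 was 11.4 to 52.9 in the first class and 2.58 to 6.96 in the second.

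The order of levels differed with the class. In the cortex-like libraries it was, by median, Hbb-bs, Hbb-bt, Hba-a2, Hba-a1, Cldn5, Slco1a4, Flt1, Pecam1 and Alas2. Flt1 and Pecam1 were not separated there, with Flt1 higher in 15 of 30 libraries. In the striatum-like libraries the order was Hbb-bs, Hba-a2, Hba-a1, Hbb-bt, Cldn5, Slco1a4, Flt1, Pecam1 and Alas2. Hbb-bs was above Hba-a2 in 23 of 30 of these and Hbb-bt above Cldn5 in 22, so neither neighbour was separated beyond the spread, and Flt1 was above Pecam1 in all 30.

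The genes also differ in transcript length, and the class difference changed with length over all genes. The longest annotated transcript (GENCODE M21) is 554 to 703 bases for the globin genes, 1416 for Cldn5, 2037 for Alas2, 3441 for Pecam1, 3823 for Slco1a4 and 6895 for Flt1. Over 15986 genes with a length, the median log2 difference was 0.81 for transcripts of 500 to 1000 bases, 0.49 for 1000 to 2000, -0.07 for 2000 to 4000 and -0.52 for 4000 to 8000. The correlation across genes of the difference with the log10 of length was r = -0.43, which describes these libraries, as genes are not independent replicates. Against the range from the 5th to the 95th percentile of their length class, the alpha-globin genes (1.07 and 1.11) and Cldn5 (1.18) lay inside, and Hbb-bs (3.72) and Hbb-bt (3.82) lay above its upper end of 2.93. Flt1 (-2.22) lay below its lower end of -2.04. The part of length in the differences between the classes was not tested. Within the libraries labelled Δ12/Δ12 the medians were 0.83 for 500 to 1000 bases and -0.49 for 4000 to 8000. Below 500 bases, where none of the 9 genes lies, the median was 1.41 there and 0.73 over all libraries.

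**Figure D3:**
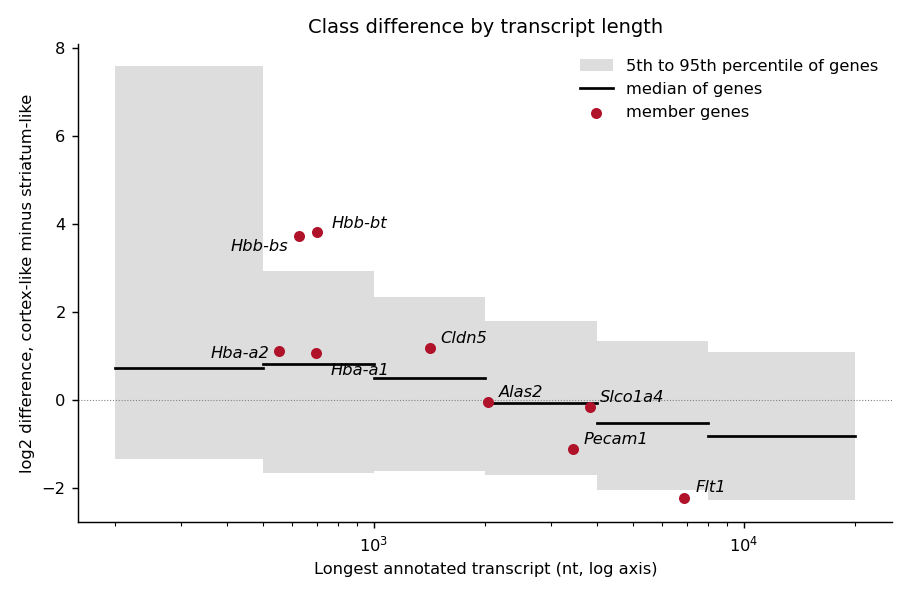
Log2 difference (cortex-like minus striatum-like) on the y axis against the length of the longest annotated transcript (log x axis); black lines are medians of the genes in a length class, grey bands run from their 5th to their 95th percentile, and red points are the 9 genes. The medians fall from 0.81 at 500 to 1000 bases to -0.81 above 8000 bases, and the beta-globin genes lie above the band.

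Other genes of vessels were read from lists written with earlier results of these data known. Their counts are to be read against those of all 16076 genes tested, of which 87.7% were called, 6657 higher and 7443 lower. Of 20 other endothelial genes, 4 were higher and 12 lower in the cortex-like libraries, with a median log2 difference of -0.94 against -0.06 over all genes tested. Itm2a, a membrane protein gene, was at a median of 73.5 against 11.6 (log2 difference 2.62) and Egfl7, an angiogenic factor secreted by endothelium, at 61.4 against 11.6 (2.40). Ptprb, the endothelial phosphatase VE-PTP, was at 0.824 against 4.15 (-1.77). Of the 17 genes tested of blood-brain barrier transporters and junctions, 3 were higher and 13 lower (median -0.69). Bsg, encoding basigin, was higher (358 against 143, log2 difference 1.31, but -0.63 after quantile normalization), and Tjp1, encoding the junction protein ZO-1, was lower (8.82 against 22.2, -1.28). Foxf2, a transcription factor gene of pericytes, was lower too (0.128 against 1.22, -1.45). The longest transcripts of Itm2a, Egfl7 and Bsg have 1526 to 1865 bases, that of Foxf2 2363, and those of Tjp1 and Ptprb 7049 and 11910. The other higher endothelial genes were Icam2 (0.96) and Esam (0.34), both encoding adhesion proteins, and the 4 that did not pass were Vwf (-0.24), Ly6a (-0.10), Ly6c1 (-0.09) and Nostrin (-0.07). The other higher barrier genes were Cldn12 (0.78) and the efflux transporter gene Abcg2 (0.73), and Ocln, encoding occludin, did not pass (-0.12).

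Of 12 mural cell genes, which mark pericytes and smooth muscle, 4 were higher and 6 lower (median -0.19). Notch3, the receptor of mural cells, was at 0.434 against 2.88 (log2 difference -1.86), Pdgfrb, the PDGF receptor of pericytes, at 0.856 against 3.71 (-1.62) and Cspg4, encoding the proteoglycan NG2, at 1.41 against 3.26 (-0.97). The 4 higher genes were Tagln (1.25), Higd1b (0.92), Kcnj8 (0.64) and Rgs5 (0.20), and Vtn (0.06) and Anpep (0.03) did not pass. Of 12 angiogenic ligands and receptors, 2 were higher and 9 lower (median -0.72). Vegfa, the main angiogenic ligand, was at 4.94 against 14.8 (-1.46), its receptor gene Kdr, which the endothelial list also holds, at 0.573 against 2.41 (-1.39) and the hypoxia factor gene Epas1 at 2.32 against 23.9 (-2.99). Angpt1 (0.46) and Vegfc (0.19) were higher, and Nrp2 (0.14) did not pass.

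Of the list of 28 other erythroid genes, 9 passed the filter on low values, and 4 were higher and 5 lower. These 9 are also used outside the erythroid lineage, among them Sptb, encoding beta-spectrin (1.91 against 24.7, log2 difference -3.28), and Tmcc2 (13.0 against 44.3, -1.66). Ube2l6 (2.16), Bpgm (0.37) and Fech (0.27) were higher, and Ank1 (-1.90), Slc25a37 (-1.76) and Mkrn1 (-0.38) were lower. The 18 that were below the filter included genes specific to erythroid precursors. Gata1, the master transcription factor of the lineage, was listed at 0 in 58 of 60 libraries, and Klf1, the erythroid Krüppel-like factor gene, in 32. Their highest levels in any library were 0.038 and 0.125. Not all of the 18 were that low. Slc4a1 was at 0 in 15 libraries, Ermap in 16, Hbq1a in 17 and Rhd in 34, and Rhag in 58. Their highest levels were 1.2, 0.87, 5.3, 3.1 and 0.029 in the same order. The embryonic globin genes Hba-x and Hbb-bh1 and the gene Hbb-bh2 were at 0 in all 60 libraries. Hbb-y, another embryonic globin gene, was at 0 in 48, with a highest level of 0.389.

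Of 12 genes of haem synthesis and breakdown, 9 were higher and 3 lower (median 0.98). Uros, encoding the synthase of uroporphyrinogen III, was at 27.5 against 4.26 (log2 difference 2.53), the biliverdin reductase gene Blvra at 31.0 against 5.31 (2.43) and Tfrc, encoding the transferrin receptor, at 38.6 against 12.5 (1.51). The 3 lower genes were Cpox (-0.70), Hmox2 (-0.46) and Hmox1 (-0.24, but 0.01 on FPKM as deposited, where 1 gene of the list was called lower and 9 higher). Few genes of other blood cells passed the filter. Of 7 platelet genes 3 were tested, of which Itga2b (2.33 against 0.365, 1.67) and Pf4 (1.15 against 0.335, 1.01) were higher and Gp1bb (1.05 against 5.15, -1.88) was lower. Of 13 leukocyte genes 3 were tested, and the granulocyte gene S100a8 (0.845 against 0.0886, 0.81) and Cd52 (1.78 against 0.941, 0.63) were higher. Ptprc, encoding the leukocyte antigen CD45 that microglia share, did not pass (0.718 against 0.754). Within the libraries labelled Δ12/Δ12, 0 leukocyte genes were called. S100a8 was not tested there, as it fell below the filter, and Cd52 did not pass (0.46, adjusted p = 0.214 by limma). Pf4 did not pass there either (0.94, adjusted p = 0.0591).

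Markers of other tissue next to the vessels moved with the class as well. All 7 choroid plexus genes were lower in the cortex-like libraries (median -2.90), with Ttr, encoding transthyretin, at 6.47 against 938, Kl, encoding klotho, at 0.335 against 13.0 and Clic6 at 0.428 against 9.60. The choroid plexus has its own fenestrated vessels. Of 8 fibroblast genes of the perivascular space and leptomeninges, 4 were higher and 2 lower, with Slc6a13 at 3.93 against 0.865, the collagen-binding proteoglycan gene Dcn at 4.39 against 1.47 and Pdgfra, also a gene of oligodendrocyte precursors, at 5.16 against 7.21. Col1a2 (0.44) and Col3a1 (0.38) were also higher and Ogn (-0.27) lower, while Col1a1 (-0.21) and Igf2 (-0.18) did not pass. Without rescaling, 5 of the list passed as higher and 0 as lower, and 3 were called within the libraries labelled Δ12/Δ12. The part of these tissues in the vessel and blood transcripts was not tested. As for the regional markers, Slc17a7 (3.17), Neurod6 (1.97) and Tbr1 (1.39) were higher and Drd2 (-5.12), Ppp1r1b (-3.02) and Drd1 (-2.44) lower in the cortex-like libraries, which Slc17a7 itself had defined.

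Within a class, the question was whether vessel and haemoglobin transcripts rise and fall together from library to library. Correlations were computed within each class over 30 libraries, for 36 pairs of genes a class, with two-sided permutation tests of Pearson's r and Benjamini-Hochberg adjustment over the 72 pairs. The 2 libraries that share a labelled mouse were counted separately. Each class held more than 1 labelled group, and neither r nor the permutations allowed for group, so differences between groups enter r. In the cortex-like libraries labelled cortex, Cldn5 had medians of 39.8 (+/+), 34.2 (Δ12/+) and 25.8 (Δ12/Δ12). For Hba-a2 these were 147, 104 and 99.1. The part of such differences in r was not tested. Pairs of globin copies passed in both classes, pairs of an alpha with a beta gene mostly in the cortex-like class, and most pairs with a vessel gene did not pass. Of the 10 pairs among blood genes, 6 passed in the cortex-like and 4 in the striatum-like libraries, all of them positive. Of the 6 pairs among vessel genes, 1 passed in the cortex-like and 0 in the striatum-like libraries. The 2 libraries with the fewest entries above 0 bear on the r of vessel genes, as given below. Of the 20 pairs of a vessel and a blood gene, 1 passed in the cortex-like and 0 in the striatum-like libraries. In the striatum-like libraries, 0 vessel pairs and 3 vessel-blood pairs had an unadjusted permutation p under 0.05, the latter all negative and all with Flt1.

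The 2 alpha genes had r = 0.96 (Spearman's rho 0.95) in the cortex-like and r = 0.85 (rho 0.81) in the striatum-like libraries, both with a permutation p of 1e-05, the smallest that the resamples allow, and an adjusted p of 0.00024. The 2 beta genes had r = 0.88 (rho 0.81, permutation p = 1e-05, adjusted p = 0.00024) and r = 0.60 (rho 0.67, permutation p = 0.00048, adjusted p = 0.00691). Reads shared between copies bear on both pairs. Alpha and beta genes share no such stretch, and Hba-a2 with Hbb-bs had r = 0.65 (rho 0.59, permutation p = 0.00013, adjusted p = 0.00234) and r = 0.49 (rho 0.58, permutation p = 0.00497, adjusted p = 0.0358). The other 3 pairs of an alpha with a beta gene had r of 0.47 to 0.57 in the cortex-like libraries, where all passed. They had r = 0.30 (Hba-a1 with Hbb-bs, adjusted permutation p = 0.301), 0.36 (Hba-a1 with Hbb-bt, 0.204) and 0.32 (Hba-a2 with Hbb-bt, 0.239) in the striatum-like libraries, where none passed. For Hba-a2 with Hbb-bs, without the 2 libraries farthest from the median of Hba-a2, r was 0.51 in both classes, and it passed in both.

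Alas2 followed Hbb-bs in the striatum-like libraries (r = 0.50, rho 0.58, permutation p = 0.00456, adjusted p = 0.0358), but not without the 2 farthest libraries (r = 0.44, adjusted p = 0.0851). In the cortex-like libraries that pair had r = -0.11 (permutation p = 0.548, adjusted p = 0.774), and r was 0.09 without the 2 libraries with the fewest entries above 0, in which Alas2 was at 5.74 and at 0.

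Flt1 and Pecam1 had r = 0.54 (rho 0.42, permutation p = 0.00225, adjusted p = 0.0231) in the cortex-like libraries and r = 0.14 (permutation p = 0.476, adjusted p = 0.700) in the striatum-like libraries. In the first class the adjusted p was 0.118 for rho. Without the 2 libraries farthest from the median of Flt1, r was 0.36 (adjusted p = 0.229), so the call depended on those libraries, while r stayed positive. It was 0.54 without the 2 libraries with the fewest entries. Over all 30 libraries of a class, Cldn5 had r between -0.01 and 0.22 with the other 3 vessel genes. Without the 2 cortex-like libraries with the fewest entries, Slco1a4 had r = 0.48 with Flt1 (0.09 over all 30). It had 0.48 with Pecam1 (0.22) and 0.32 with Cldn5 (0.09). Cldn5 with Flt1 then had 0.13 (0.22) and with Pecam1 -0.02 (-0.01). The r without these libraries were given no test. The scaling bears on these pairs: on FPKM as deposited, Cldn5 with Flt1 had r = 0.60 (permutation p = 0.00044, adjusted p = 0.00453) in the striatum-like libraries, and the median r of the 6 vessel pairs there was 0.36 rather than 0.095.

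Of the pairs of a vessel with a blood gene, Flt1 with Alas2 passed in the cortex-like libraries (r = 0.49, rho 0.09, permutation p = 0.00728, adjusted p = 0.0476). The relation rests on single libraries, since r was 0.09 without the 2 farthest from the median of Flt1 and 0.28 without the 2 with the fewest entries. In the striatum-like libraries the same pair had r = -0.46 (permutation p = 0.0108, adjusted p = 0.0554). Flt1 with Hbb-bs had r = -0.42 (permutation p = 0.0195, adjusted p = 0.0879) in the cortex-like and r = -0.26 (permutation p = 0.168, adjusted p = 0.403) in the striatum-like libraries. On FPKM as deposited it passed in the cortex-like libraries (r = -0.49, permutation p = 0.00626, adjusted p = 0.0347), while Flt1 with Alas2 did not (r = 0.46, adjusted p = 0.0541). Cldn5 with Hbb-bs had r = 0.14 and r = 0.08. Without the 2 cortex-like libraries with the fewest entries, Hbb-bs had r = -0.51 with Pecam1 (-0.20 with them). It then had -0.40 with Slco1a4 (-0.20), -0.48 with Flt1 (-0.42) and 0.23 with Cldn5 (0.14), again without a test. Over the 20 pairs, r ranged from -0.42 to 0.49 (median 0.06) and from -0.46 to 0.20 (median -0.01).

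**Figure D4:**
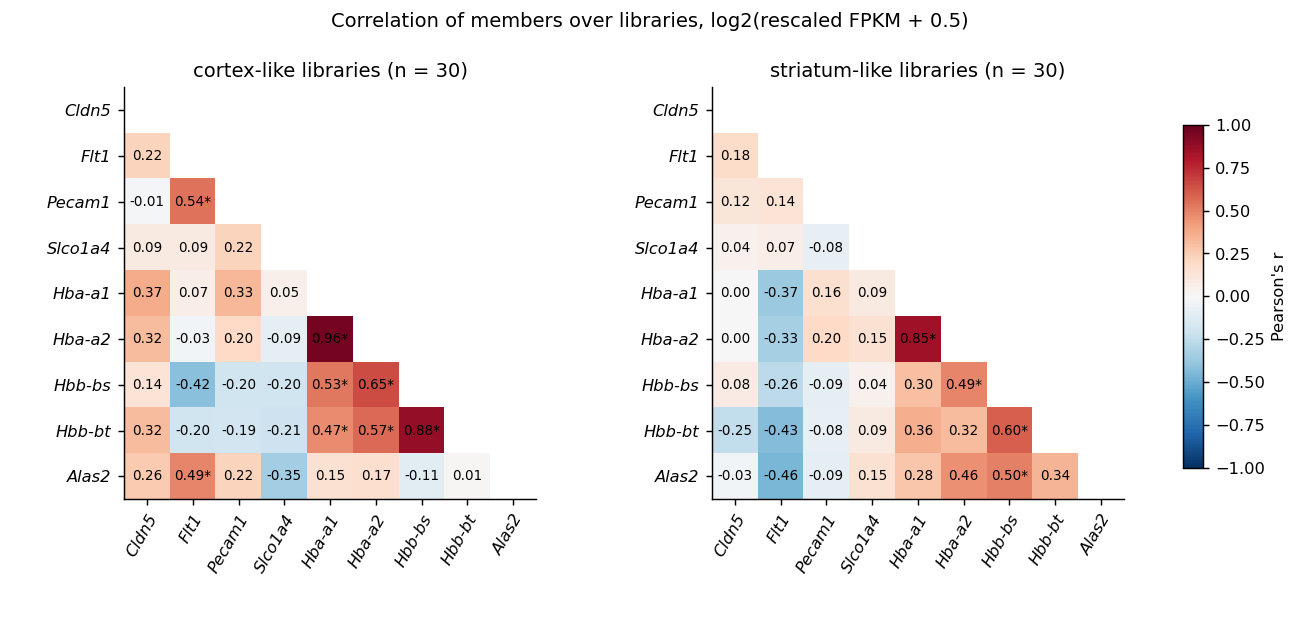
Pearson's r between pairs of the 9 genes over the 30 libraries of each class, on log2(rescaled FPKM + 0.5), with red for positive and blue for negative values and a star where the adjusted permutation p was under 0.05. The lower right block, the pairs among blood genes, holds the highest values (0.96 and 0.85 for the alpha genes), and the block of vessel with blood genes holds 1 star in all.

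The spread from library to library of the 4 globin genes, and of the vessel gene Cldn5, was above the median of all genes and of the genes nearest in level. The SD of log2(rescaled FPKM + 0.5) in the cortex-like libraries was 0.45 for Hbb-bs, 0.61 for Hbb-bt, 0.42 for Hba-a1 and 0.39 for Hba-a2, against a median of 0.30 over all genes and of 0.23 to 0.26 over the genes nearest in level. In the striatum-like libraries it was 0.23, 0.37, 0.30 and 0.24 in the same order, against 0.19 over all genes and 0.13 to 0.14 over those nearest in level. For Cldn5 it was 0.33 in the cortex-like and 0.22 in the striatum-like libraries, against 0.23 and 0.14 over the genes nearest in level. For Slco1a4 it was 0.34 and 0.18, against 0.26 and 0.15, and the 0.18 was below the median of all genes. Hbb-bt varied more than 89% and 87% of genes in the 2 classes. Flt1 was among the steadier genes in the striatum-like libraries (SD 0.11, more than 13% of genes) and spread more in the cortex-like libraries (0.44), where its level was low. The deposited interval of Flt1 reached a median of 35.0% of its value to either side there and 9.81% in the striatum-like libraries. For Alas2 these medians were 62.3% and 57.7%, and for Hbb-bs 4.57% and 9.71%.

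The genes whose pattern was most like Hbb-bs, by the mean of the within-class r over the 2 classes of 30 libraries, were first Hbb-bt (mean r 0.74, rank 1 of 16075 genes). Hba-a2 ranked 8 (0.57), Hba-a1 222 (0.41) and Alas2 2362 (0.20), while Flt1 ranked 15651 (-0.34). The 8 nearest genes outside the 9 were Atp9b (0.67), Gm11361 (0.64), Ssna1, Gm11478 and Herc4 (0.58 each), Ext1 (0.57), and Gm9843 and Drg1 (0.56 each). For Cldn5 the nearest were Cox6a1 (0.57), 1700066M21Rik (0.53), Tsr3 and Id3 (0.52 each), Sst (0.51), Aar2 (0.50), and Acaa1a and Gm26083 (0.49 each), and the 3 other vessel genes ranked 1844 (Flt1, 0.20), 5508 (Slco1a4, 0.06) and 5725 (Pecam1, 0.06). No vessel gene of the 9 was thus among the 8 nearest to Cldn5.

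Each labelled mouse had a library labelled cortex and one labelled striatum, and 15 labelled mice had both in each class. The question was whether they varied together. For Hbb-bs, r between the libraries of a labelled mouse was 0.36 (rho 0.44, permutation p = 0.181, adjusted p = 0.241 over 4 relations) in the cortex-like and -0.06 (rho 0.03, permutation p = 0.826, adjusted p = 0.826) in the striatum-like libraries. For Cldn5 it was 0.54 (rho 0.52, permutation p = 0.0376, adjusted p = 0.0752) and 0.62 (rho 0.43, permutation p = 0.0118, adjusted p = 0.0470). Without the 2 mice farthest from the median, r for Cldn5 was 0.27 and 0.29. Neither passed, so the call in the striatum-like class depended on those mice. On FPKM as deposited, r for Cldn5 was 0.45 (adjusted permutation p = 0.1835) and 0.74 (adjusted permutation p = 0.00736), so it also depended on the scaling. Differences between labelled groups enter these r as well, and their part was not tested.

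Between labelled cortex and labelled striatum, 0 of the 9 genes passed, against 0% of 16076 genes by limma, of which 160 had an unadjusted p under 0.05. The log2 differences (labelled cortex minus labelled striatum) ran from -0.08 (Hbb-bs, SE 0.49) to 0.08 (Alas2, SE 0.12), and with the labelled mouse as a block 0 genes passed as well. The libraries of each labelled tissue were divided evenly between the classes, so this comparison did not set cortex-like against striatum-like tissue.

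Littermates of the Δ12 line were compared within a labelled tissue, with labelled sex as a covariate, to ask whether the shortened Htt allele goes with a change in vessel or blood transcripts. In labelled striatum, Hbb-bs was at 696 to 1197 (median 896) in the 6 libraries labelled +/+ and at 61.7, 64.7, 65.2, 448, 780 and 797 in those labelled Δ12/Δ12. The 3 low values are those of the female-labelled, striatum-like libraries, and 1 of the other 3 was below the range of +/+. Cldn5 was at 26.9 to 49.7 (median 38.7) and at 15.4 to 29.5 (median 20.4), and 23.7 was the median of the 3 cortex-like Δ12/Δ12 libraries. In the male-labelled libraries Cldn5 was at 41.8, 43.3 and 49.7 in +/+ and at 21.9, 23.7 and 29.5 in Δ12/Δ12. Hba-a2 was at 105 to 175 (median 134) and at 49.7 to 91.2 (median 69.6), without overlap.

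By limma, 5 of the 9 genes were lower in Δ12/Δ12, against 28.3% of 15467 genes called in this comparison. The log2 differences were -0.85 (SE 0.12, adjusted p = 0.0176) for Cldn5, -1.04 (SE 0.14, adjusted p = 0.0176) for Hba-a1, -0.99 (SE 0.13, adjusted p = 0.0152) for Hba-a2, -2.13 (SE 0.54, adjusted p = 0.0319) for Hbb-bs and -2.57 (SE 0.56, adjusted p = 0.0297) for Hbb-bt. With the expression class as a further covariate 0 of the 9 passed, against 21 of 15467 genes. The values were then -0.84 (adjusted p = 0.102) for Cldn5, -0.86 (0.162) for Hba-a1, -0.77 (0.0986) for Hba-a2, -0.44 (0.444) for Hbb-bs and -0.87 (0.311) for Hbb-bt. Without the sex covariate 0 passed too, against 9 of 15467 genes. Both counts of 0 are thus near the background. Leaving out striatum Δ12/Δ12 female1 or female3 left 0 called, female2 left 2, and leaving out +/+ female1, female2 or female3 left 3, 3 and 1, so the count rests on these libraries. The count over all genes moved as well, from 5 to 6208 in the 12 fits that left out 1 library.

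**Figure D5:**
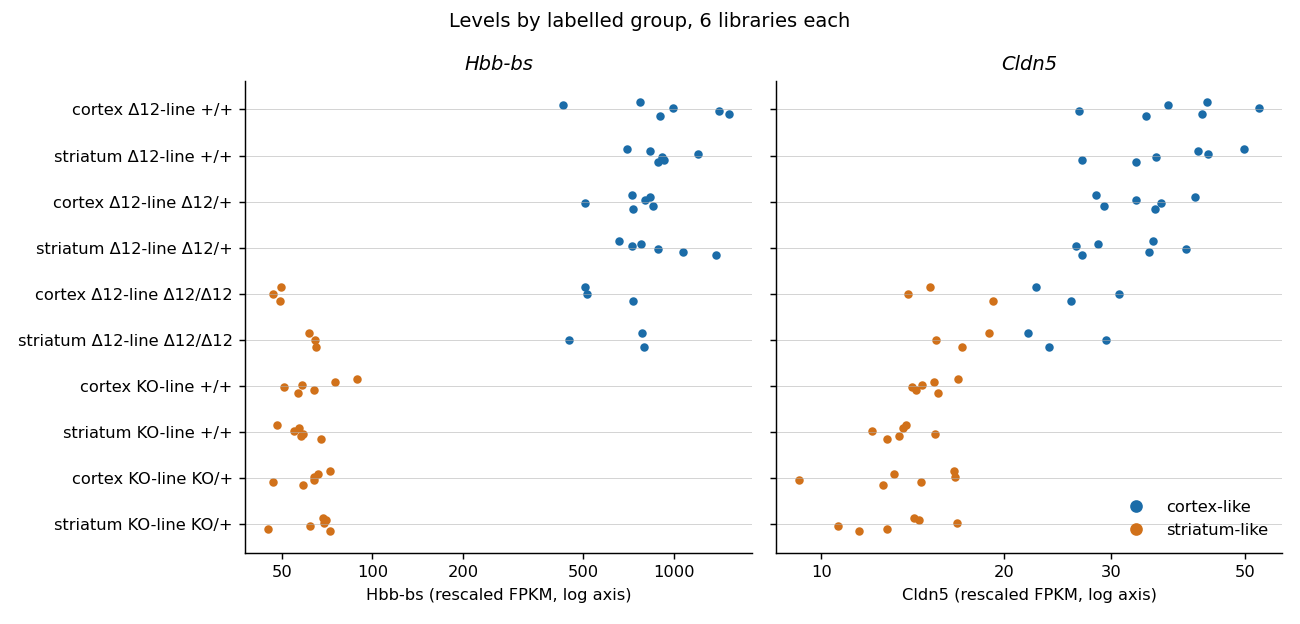
Rescaled FPKM (log x axes) of Hbb-bs and Cldn5 in the 10 labelled groups of 6 libraries, each point a library, in blue for cortex-like and in orange for striatum-like libraries. The libraries labelled Δ12/Δ12 split by class in both labelled tissues, with Hbb-bs at 46.8 to 65.2 in the striatum-like and at 448 to 797 in the cortex-like libraries.

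In labelled cortex, Cldn5 was at 26.6 to 52.7 (median 39.8) in +/+ and at 13.9 to 30.9 (median 20.9) in Δ12/Δ12. Of the 3 cortex-like Δ12/Δ12 libraries (22.6, 25.8 and 30.9), all labelled male, 1 lay within the range of +/+. The low end of that range was female1, and the male-labelled +/+ libraries were at 37.3, 43.2 and 52.7. Cldn5 was the 1 of 9 genes that passed (log2 difference -0.90, SE 0.17, adjusted p = 0.0386), against 0.924% of 15696 genes. With the class as a covariate its difference was -0.73 (adjusted p = 0.504), where 12 of 15696 genes were called. Of the 12 fits that left out 1 library, 9 also lost the call of Cldn5, among them those without cortex +/+ male1 or female1, the libraries with the fewest entries. Without cortex +/+ male2, 5 of the 9 genes passed. The count over all genes ranged from 12 to 3844 in the same 12 fits. Hbb-bs was at 427 to 1520 (median 945) in +/+ and at 46.8, 49.5, 49.6, 505, 516 and 732 in Δ12/Δ12 (log2 difference -2.46, SE 0.69, adjusted p = 0.0697).

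None of the 9 genes passed for a single Δ12 copy or for the KO allele. In Δ12/+ against +/+, 0 of 9 passed in labelled striatum (0.00663% of 15077 genes did) and 0 in labelled cortex (0.0662% of 15095). For Hbb-bs the log2 differences were -0.02 (SE 0.17) and -0.34 (SE 0.27), and for Cldn5 -0.25 (SE 0.16) and -0.19 (SE 0.16). In KO/+ against +/+, 0 of 9 passed in labelled striatum, against 6.91% of 15808 genes, and 0 in labelled cortex, against 0.0885% of 15820. There Hbb-bs was at 45.2 to 72.3 in KO/+ and 48.4 to 67.7 in +/+ of labelled striatum (0.16, SE 0.12), and at 46.9 to 72.3 and 51.0 to 89.0 in labelled cortex (-0.07, SE 0.11). The log2 difference of Slco1a4 in KO/+ of labelled striatum (-0.18, SE 0.08) was the 1 value of these comparisons with an unadjusted p under 0.05 by limma (adjusted p = 0.211). The comparisons of Δ12/Δ12 and of Δ12/+ share their +/+ libraries.

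The effect of a genotype did not differ detectably between the labelled tissues. In each genotype and labelled sex, however, both labelled tissues held libraries of the same class. The comparison thus could not show a difference between cortex-like and striatum-like tissue. By limma's interaction term, 0 of the 9 genes passed for Δ12/Δ12, Δ12/+ or KO/+, as did 0% of the genes tested in each, with 452, 969 and 1788 genes at an unadjusted p under 0.05. For Hbb-bs the difference of the effects (cortex minus striatum) was -0.33 (SE 0.90) for Δ12/Δ12, -0.32 (SE 0.32) for Δ12/+ and -0.23 (SE 0.18) for KO/+.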

How the data were processed

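RNA was extracted with a column kit, depleted of rRNA, made into directional libraries and sequenced on a NovaSeq6000. For each library the authors deposited FPKM per gene entry with interval bounds (coordinates on GRCm38, GRCm38.p4 per the submitters' processing notes). These notes also name bcl2fastq 2.20, Trimmomatic 0.30, TopHat2 2.0.14, SAMtools 1.3 and HTSeq 0.6.1p1, with no roles. The program behind the FPKM and the annotation release are not given in the sources used here. FPKM are not counts, so no count model was used.

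The 23 entries whose status was not OK in every table were left out. FPKM were divided by median-of-ratios factors (0.761 to 1.38, from 13235 entries above 0 in all libraries). Genes with a mean of at least 0.5 were tested with limma 3.58.1 (R 4.3.3) on log2(rescaled FPKM + 0.5), with Benjamini-Hochberg adjustment over all genes. Fold changes on this scale understate the change of low genes. The fit was tested on simulated data. Permutation tests used 100000 resamples. Groups followed the labels; striatum KO/+ female3 is 1 library whose title disagrees with its genotype label on the line, and the genotype label was used. Each table was taken as the table of the sample it was deposited under. Nothing states that preparations were separate, so p-values measure the spread between these libraries. Genes, lists, classes and tests were chosen with earlier results of these data known. The genes named are the 9, up to 3 of each list by smallest adjusted p and any behind a count of 5 or fewer, and the 8 nearest to Hbb-bs and to Cldn5. Gata1, Klf1, Slc4a1, Ermap, Hbq1a, Rhd, Rhag, Hbb-y, the globin genes at 0 and Ttr were named after their values were seen. Some genes of the lists are not reported here. Alternatives were other scalings, pseudocounts, filters and covariates, a block, and left-out libraries. Depth was estimated as the median over genes with a single transcript of more than 2000 bases and more than 20 implied fragments, from the width of the deposited bounds.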

Additional observations from a re-analysis of the deposited data

Results flagged for a closer look

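In each labelled group of 6 libraries, the highest or lowest library was compared with the other 5 by Dixon's criterion, for the 9 genes in 10 groups. Of these 90 groups of values 7 had such a library, and chance gives about 1 in 20. Flt1 was at 11.4 in cortex KO-line KO/+ female2 (8.88 to 9.48 in the other 5) and at 3.17 in striatum Δ12-line +/+ male1 (1.09 to 1.70). Alas2 was high in that same library, at 1.77 (0.579 to 0.909), and at 5.74 in cortex Δ12-line +/+ male1 (0 to 1.24), 1 of the 2 libraries with the fewest entries above 0. Pecam1 was at 4.83 in cortex KO-line +/+ female3 (3.29 to 3.67) and Slco1a4 at 13.6 in striatum Δ12-line Δ12/Δ12 female1 (8.86 to 10.4). Hbb-bs was the 1 gene with a low library, at 505 in cortex Δ12-line Δ12/+ female1 (722 to 852).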

How the results depend on the processing

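In the comparison of the classes, 8 of 9 genes passed under every alternative but the 12 libraries labelled Δ12/Δ12 (7), and the directions of Slco1a4 (0.19 on FPKM as deposited) and of Alas2 (0.18 as deposited, 0.17 after quantile normalization) turned. For labelled striatum Δ12/Δ12 against +/+, 5 genes passed, 4 after quantile normalization (Hbb-bs at adjusted p = 0.0515 by limma), 3 without a filter, and 0 without the sex covariate, with the replicate block or with the class as a covariate; leaving out a library gave 0 to 6. For labelled cortex, 1 passed, and 0 on FPKM as deposited, after quantile normalization, with a pseudocount of 0.1, without a filter, without the sex covariate, with the block or with the class; leaving out a library gave 0 to 5. Over all genes, these 2 counts (4381 and 145) fell to 5 and 9 with the block, 21 and 12 with the class and 9 and 10 without the sex covariate. They ranged from 5 to 6208 and from 12 to 3844 with a library left out. In the other genotype comparisons, counts over all genes ranged with a library left out from 1 to 2 (striatum Δ12/+, 1 in full), 560 to 1243 (striatum KO/+, 1093), 5 to 41 (cortex Δ12/+, 10) and 1 to 19 (cortex KO/+, 14), and the block gave 0, 302, 3 and 0. Whether the numbers pair mice of different genotypes could not be told. Deviations of same-numbered libraries had r of -0.21 to 0.09. For the 2 libraries of a labelled mouse r was -0.16 to 0.13, so the measure did not show a pairing that the labels give. The block changed no other call of the 9 genes. Of the pairs in the cortex-like libraries, the 1 among vessel genes became 0 with Spearman's rho. The 1 of a vessel and a blood gene became 0 after quantile normalization, with a pseudocount of 0.1 and with rho, and 2 without the 2 farthest libraries. In the striatum-like libraries 1 vessel pair, rather than 0, passed on FPKM as deposited. Between the libraries of a labelled mouse in the striatum-like class, r = -0.06 for Hbb-bs became 0.03 (rho) and -0.16 (FPKM as deposited). It became 0.45 without 2 mice, an alternative added after seeing the data. For Cldn5, r = 0.62 became 0.43 (rho) and 0.29 (without 2 mice) and no longer passed. On FPKM as deposited it became 0.74 and passed. The causes were not tested. The deposited intervals were widest for Alas2 and, in the cortex-like libraries, wide for Flt1 and Pecam1.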
